A study of Mus musculus with 12 samples.

Results

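The genes of oxidative phosphorylation were read in external granule layer of the mouse cerebellum at postnatal day 6, in mice that lack the transcriptional regulator SnoN and in controls. Members were the protein-coding genes whose symbols begin with Ndufa, Ndufb, Ndufc, Ndufs, Ndufv, Uqcr, Cox4 to Cox8 or Atp5, with Sdha, Sdhb, Sdhc, Sdhd, Cycs and Cyc1, and the mitochondrial-genome genes mt-Nd, mt-Co, mt-Cytb and mt-Atp. By this rule 109 annotated genes qualified, and 108 of them were among the 53379 genes of the deposited tables. Of these, 95 lie on nuclear chromosomes and 13 on the mitochondrial genome. The 8 complex I assembly factors named Ndufaf entered by their symbols, although they are not subunits of the finished complex.

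The layer was taken by laser capture from the central lobules of C57BL/6 mice, from 6 libraries titled wild type and 6 titled knockout, here WT1 or KO2 by their numbers. The knockout is conditional, and the control group is described as littermates. The Cre line and the deleted exons are not stated in these sources. Nor is it stated that each library is a separate animal, so the spread behind each p-value may be technical. WT2 and KO4 carry a note from the submitters that they are outliers in a robust principal component analysis; they stayed out of the comparison, which set 5 libraries against 5, and their values are given beside it. KO2 is knockout by its title and wild type by its genotype tag, and was used by its title.

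Skil, the gene of SnoN, bears on the titles but does not settle the label of KO2. Its level in CPM (the count per 1e+06 counts of a library, scaled for composition) was 47.5, 57.8, 57.3, 38.5 and 48.5 in WT1, WT3, WT5, WT6 and WT7, and 36.1, 36.7, 20.9, 30.1 and 29.9 in KO2, KO3, KO5, KO6 and KO8. Every knockout library lay below every wild-type library, by a log2 fold change of -0.70 ± 0.15 (SE), with an edgeR adjusted p of 0.124; with each library's trend of level on GC content removed, the fold change was -0.95 ± 0.11 (SE) and the adjusted p 0.000449. The gap was narrow, with 36.1 CPM in KO2 and 36.7 in KO3 against 38.5 in WT6. Over all alternatives, with edgeR's or DESeq2's test, the fold change of Skil ran from -1.05 to -0.59 and its adjusted p from 0.000259 to 0.999. The marked libraries had the extreme levels, 76.5 for WT2 and 14.0 for KO4. Total gene counts ran from 7520076 to 15083086. Markers of granule neuron precursors were all detected, with a summed level of 1964 to 2333 CPM in wild type and 2066 to 2791 CPM in knockout libraries. Markers of other cells were present too: the 6 Purkinje cell markers summed to 241 to 357 CPM in wild type and 312 to 544 CPM in knockout.

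Oxidative phosphorylation passes electrons from NADH through complex I, or from succinate through complex II, to ubiquinone, and on through complex III, cytochrome c and complex IV to oxygen. Complexes I, III and IV pump protons across the inner mitochondrial membrane, and complex V uses the gradient to make ATP. Every complex except II combines subunits encoded in the nucleus, translated in the cytosol and imported, with subunits encoded on the mitochondrial genome, which is transcribed inside the organelle from both strands as long precursors. Granule neuron precursors divide rapidly in this layer and are known for high glycolysis, with a turn towards oxidative metabolism as they become neurons.

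A limit of the counts falls on these genes more than on most, because many have near-identical copies elsewhere in the genome. Alignments to several places made up between 64.4% and 67.6% of all records and are not part of the gene counts. For each member, the share of its 50-base windows that also occur in an annotated transcript of another gene was computed (GENCODE M21, GRCm38; no source used here states the read length). On the mitochondrial genome this share was 0% for mt-Nd1, mt-Cytb, mt-Nd6 and mt-Atp8, 7.61% for mt-Nd5, 8.19% for mt-Nd2, 51.1% for mt-Co1 and 62.2% for mt-Nd4. It was 98.0% for mt-Nd3, 98.8% for mt-Nd4l, 99.5% for mt-Atp6, 99.9% for mt-Co3 and 100% for mt-Co2. The copies of the last 5, of mt-Nd4 and of mt-Co1 lie side by side on chromosome 1, as unprocessed pseudogenes annotated between positions 24611535 and 24616197. The sequences of mt-Nd4l (chrM:9877-10173, plus strand) and of mt-Nd3 (first 300 bases, chrM:9459-9758, plus strand) with its copy Gm28438 (first 300 bases, chr1:24612820-24613119, minus strand) show how close the copies are. They are GENCODE M21 transcripts, and the capitals mark the only base in which mt-Nd3 and its copy differ over 345 aligned bases. The copy of mt-Nd4l, Gm10222, has the same letters over all of its 294 bases, so it is not printed.
mt-Nd4l: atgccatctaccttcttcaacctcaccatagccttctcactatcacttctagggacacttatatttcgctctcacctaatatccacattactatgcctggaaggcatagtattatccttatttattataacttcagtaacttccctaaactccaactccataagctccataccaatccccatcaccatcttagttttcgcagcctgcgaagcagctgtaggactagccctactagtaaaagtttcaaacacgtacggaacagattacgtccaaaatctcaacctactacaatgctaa
mt-Nd3: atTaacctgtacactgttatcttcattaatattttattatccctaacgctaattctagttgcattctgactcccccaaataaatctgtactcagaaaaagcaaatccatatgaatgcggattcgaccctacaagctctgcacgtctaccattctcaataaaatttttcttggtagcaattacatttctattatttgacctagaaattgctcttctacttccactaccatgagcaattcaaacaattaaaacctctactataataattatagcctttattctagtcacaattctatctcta
Gm28438: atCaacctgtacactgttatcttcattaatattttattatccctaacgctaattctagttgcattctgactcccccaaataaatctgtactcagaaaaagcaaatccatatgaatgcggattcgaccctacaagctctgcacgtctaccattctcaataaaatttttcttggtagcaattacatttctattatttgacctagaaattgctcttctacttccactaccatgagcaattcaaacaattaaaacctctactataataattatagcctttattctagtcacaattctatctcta

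Of the 5 mitochondrial-genome members with nearly all of their sequence shared, 4 had at most 3 counts in any library: mt-Nd4l had 0 counts in all 12 libraries, mt-Co2 at most 1, mt-Atp6 at most 2 and mt-Co3 at most 3. The other, mt-Nd3, had 10 to 145 counts. These genes encode essential subunits of complexes I, IV and V, made from the same precursor RNA as mt-Nd1 and mt-Cytb, which were among the most abundant members. mt-Atp8 was also at 0 in all 12 libraries, which allows up to 3 counts in each, although none of its windows was found in another transcript; its chromosome 1 counterpart could only lie between the annotated copies of mt-Atp6 and mt-Co2, where no transcript is annotated, and was not checked. These 5 genes (mt-Nd4l, mt-Co2, mt-Atp6, mt-Co3 and mt-Atp8) are not described further, and their low counts say nothing about their expression.

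Nuclear members whose coding sequence is almost wholly shared had low levels per length as well. In 6 nuclear members (Cycs, Atp5g1, Atp5g2, Atp5l, Ndufab1 and Ndufb4) 99% or more of the coding windows occur in other genes, and their mean levels over the 10 libraries were 0.189 to 24.4 CPM per kb of exon, with a median of 3.18. In the 59 members with no shared coding window the median was 104 CPM per kb, and the range ran from 0 in Cox8c to 1033 in Ndufa4. The 10 members with a share of 40% to under 99% had a median of 44.6 CPM per kb, and the 20 with a lower share a median of 213 CPM per kb. These bins were set after the values were seen. The counts of Cycs, Atp5l, Atp5g2 and Ndufb4, whose coding windows are all shared, therefore come from exon sequence outside the coding part if reads are of about the window's length. The level per kb also divides by the exon length joined over all annotated transcripts. Among these 6 members that length ran from 1675 bases in Atp5g2 to 6883 in Ndufab1, so a long annotation lowers the level per kb too. Levels between genes below are per length and carry these limits.

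**Figure D1:**
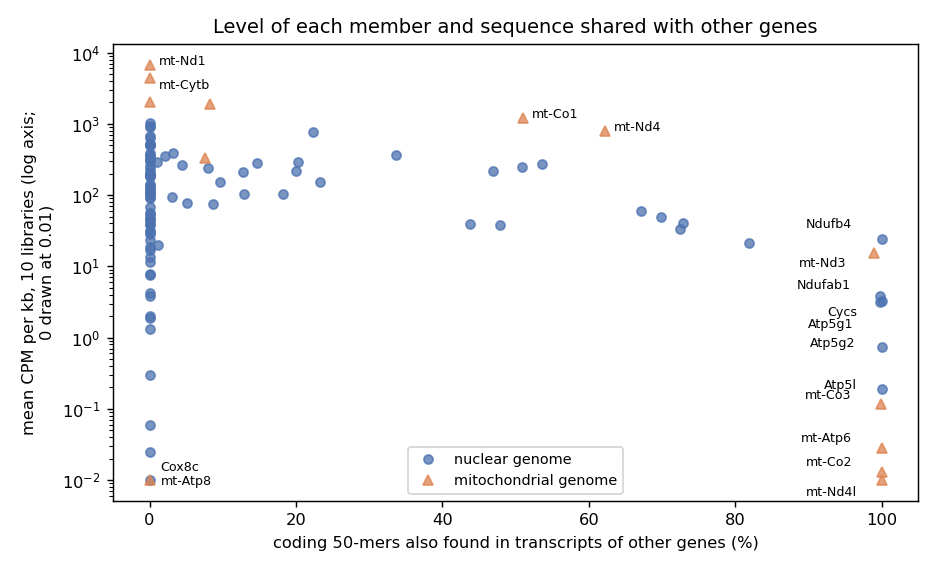
Each point is 1 of the 108 members: the share of its coding 50-base windows found in transcripts of other genes (x axis, %) against its mean level over the 10 libraries (y axis, CPM per kb of exon, log scale, 0 drawn at 0.01). Members with shares of 99% or more lie at 24.4 CPM per kb or lower, and mt-Atp8 is the mitochondrial gene at 0 with no shared window.

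Within these limits, the most abundant members were mitochondrial-genome mRNAs, though not every such mRNA exceeded the nuclear ones. mt-Nd4 (789 CPM per kb), mt-Nd5 (332) and mt-Nd3 (15.5) lay below the highest nuclear member. mt-Nd1, a membrane subunit of complex I, had 6756 CPM per kb as a mean of the 10 libraries. mt-Cytb, the cytochrome b of complex III, had 4385, and mt-Nd6 and mt-Nd2, subunits of complex I, had 2026 and 1929. The highest nuclear member was Ndufa4, named as a complex I subunit and since assigned to complex IV, with 1033 CPM per kb. Within single libraries the level of mt-Nd1 per kb was 5.22 to 7.14 times that of Ndufa4 in wild type and 6.20 to 8.27 times in knockout, so the groups overlapped. mt-Nd6 lies on the opposite strand of the mitochondrial genome and overlaps mt-Nd5 at its end; since the libraries do not mark strand, its reads cannot be told apart from RNA copied from the other strand.

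By complex, the median level of nuclear members was 252 CPM per kb in complex III (9 genes), 186 in complex V (17), 125 for the core subunits of complex I (7), 104 for its accessory subunits (31), 80.1 in complex II (4) and 58.5 in complex IV (18). The complex I assembly factors had a median of 20.8 CPM per kb (8 genes), and Ndufaf8, the highest of them, reached 54.5. These groups follow the gene symbols, so Ndufa4 and Ndufa4l2 stand with the accessory subunits of complex I and not with complex IV. The low median of complex IV came with its tissue-specific isoforms, which are genes in their own right. Cox4i1, the common isoform of subunit 4, stood 327 to 890 times above Cox4i2 per kb in single libraries, and Cox6b1 stood 124 to 788 times above the testis isoform Cox6b2. Of the heart and muscle isoforms, Cox6a2 had 0 to 11 counts, Cox7a1 3 to 35 and Cox8b 0 or 1, and Cox8a was at least 654-fold higher than Cox8b per kb, taking 3 counts per library as the floor. Cox7b was at least 383-fold higher than Cox7b2 on the same floor, and Cox8c had no count in the 10 libraries. Cox7a2l, which takes part in joining complexes into supercomplexes, was nearer to Cox7a2, which stood 1.48 to 3.0 times above it. Ndufa4 stood 141 to 486 times above Ndufa4l2, a paralogue known to be induced by low oxygen. Among the genes for the membrane ring of complex V, Atp5g3 stood 74.8 to 141 times above Atp5g1, but the latter's coding sequence is shared with pseudogenes.

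Summed over members, mitochondrial-genome counts varied between libraries and nuclear counts hardly did. Mitochondrial-genome members took 1.44%, 1.44%, 1.46%, 1.07% and 1.91% of gene counts in WT1, WT3, WT5, WT6 and WT7, and 2.20%, 2.97%, 1.41%, 1.86% and 2.24% in KO2, KO3, KO5, KO6 and KO8. Nuclear members took 2.65% ± 0.114 (SD, n = 5) in wild type and 2.62% ± 0.151 (SD, n = 5) in knockout. The ratio of mitochondrial to nuclear counts within a library was 0.533, 0.585, 0.541, 0.407 and 0.698 in wild type, and 0.927, 1.13, 0.513, 0.679 and 0.853 in knockout. Thus 3 knockout libraries (KO2, KO3 and KO8) lay above every wild-type library, KO6 lay just below WT7, and KO5 lay below 4 of the 5 wild-type libraries. The mean log2 ratio was -0.88 ± 0.28 (SD, n = 5) in wild type and -0.34 ± 0.44 (SD, n = 5) in knockout, a difference of 0.54.

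The marked libraries went the other way. WT2 had the highest ratio of all 12, 1.26, and KO4 had 0.465, below every library but WT6. With all 12 libraries the difference of the mean log2 ratio was 0.21, and with each library of the 10 left out in turn it ranged from 0.41 to 0.70. With KO2 counted as wild type it was 0.35. By group mean and in the marked libraries, the mitochondrial rRNAs moved as the mRNAs did. They took 0.734% ± 0.177 (SD, n = 5) of counts in wild type and 1.05% ± 0.258 (SD, n = 5) in knockout, with 1.39% in WT2 and 0.559% in KO4. Among single libraries the order differed: WT7, with the highest mRNA share of the wild-type libraries compared, had 0.717% rRNA, below WT1, WT3 and WT5. In bulk tissue, more mitochondrial RNA per cell and more cells rich in it cannot be told apart.

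**Figure D2:**
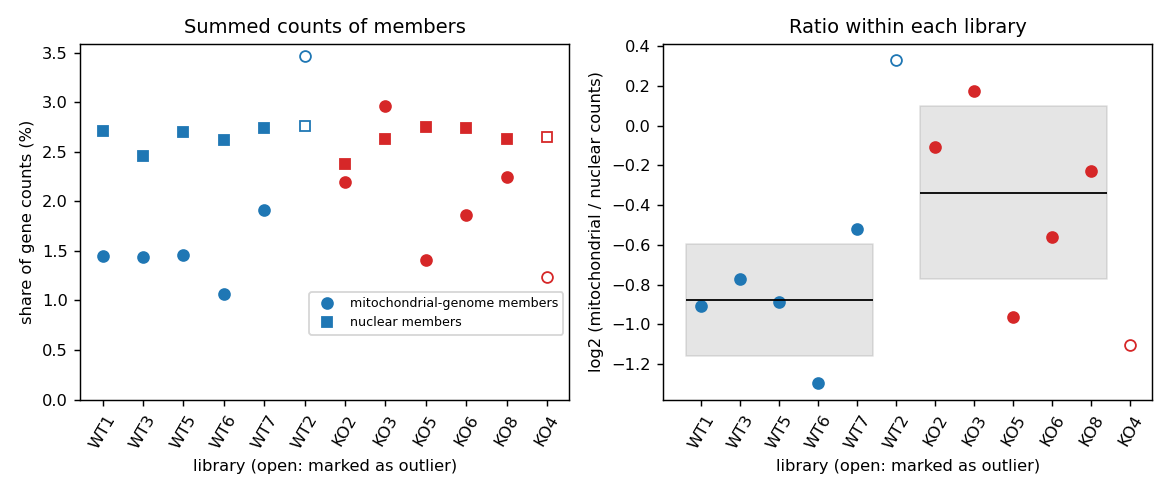
Left, the share of gene counts (%) taken by mitochondrial-genome members (circles) and nuclear members (squares) in each library; right, the log2 ratio of the summed counts, with the mean (line) and SD (band) of the 5 libraries compared in each group. Wild type is blue, knockout red and the marked libraries open; the nuclear share stays between 2.37% and 2.76% while the mitochondrial share runs from 1.07% to 3.47%.

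No member passed the test between knockout and wild type: edgeR's quasi-likelihood test, adjusted over all 13442 genes with enough counts, called 0 of 91 nuclear and 0 of 8 mitochondrial-genome members at an adjusted p under 0.05. Of all genes it called 3, or 0.0223%. The 9 members without enough counts to test were the 5 mitochondrial genes at or near 0 and Cox6a2, Cox7b2, Cox8b and Cox8c. DESeq2 on the same libraries called Cox7b, Cycs, mt-Nd1, mt-Nd4 and mt-Cytb, all higher in knockout, with 1.75% of all genes called higher. With every gene of at least 1 count kept, edgeR called 4 nuclear and 5 mitochondrial-genome members, and 3.49% of all genes. At an unadjusted p under 0.05, 8 of 8 mitochondrial-genome members were higher in knockout, against 11.8% of all genes tested; among nuclear members 13 of 91 were higher and 5 lower, against 11.8% higher and 9.97% lower over all genes. The 8 mitochondrial-genome genes moved together across libraries, with KO3 the highest of the 10 in 7 of them and WT6 the lowest in 7. Their count is therefore not that of 8 separate results. The nuclear counts depended on the setting. With library size alone as scaling, 6 nuclear members were higher and 12 lower, against 6.58% and 14.8% of all genes. With each library's trend of level on GC content removed they were 16 and 7, against 7.52% and 8%. With KO2 counted as wild type they were 8 and 0, against 2.31% and 3.21%. The mitochondrial-genome count depended on the setting too, and 2 of 8 were higher with KO2 counted as wild type. With only KO4 added 4 of 8 were higher, against 6.94% of all genes, and with only WT2 added 0 of 8, against 1.61%. In the comparison of 5 libraries against 5, the median log2 fold change was 0.61 over the 8 mitochondrial-genome members. It was -0.01 over the 91 nuclear members, beside 0.00 over all genes tested.

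The result turned on KO5. Without this library, edgeR called 31 of 91 nuclear members (14 higher, 17 lower) and 8 of 8 mitochondrial-genome members, all higher; of all genes 12.3% were then called higher and 10.6% lower. KO5 had the lowest Skil level of the 5 knockout libraries compared. Leaving out any other of the 10 libraries gave 0 calls among members.

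The 8 mitochondrial-genome genes had log2 fold changes between 0.45 and 1.01, with adjusted p from 0.131 to 0.160 in edgeR's test. mt-Nd1 had 4752, 4970, 5124, 3648 and 6942 CPM in WT1, WT3, WT5, WT6 and WT7, and 8025, 10340, 4953, 6990 and 8906 in KO2, KO3, KO5, KO6 and KO8. KO5 fell among the wild-type libraries and the other 4 knockout libraries lay above all of them. The log2 fold change was 0.63 ± 0.19 (SE), adjusted p 0.131. For mt-Cytb the values were 3838, 4091, 3837, 2614 and 4742 CPM in wild type and 6605, 9088, 3464, 5017 and 6867 in knockout, in the same arrangement, with a log2 fold change of 0.70 ± 0.21 (SE) and adjusted p 0.131.

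The other complex I genes read from the mitochondrial genome had log2 fold changes of 0.60 in mt-Nd2, 0.54 in mt-Nd4, 0.50 in mt-Nd5, 0.45 in mt-Nd6 and 1.01 in mt-Nd3, of which mt-Nd5 and mt-Nd6 turned slightly negative under an alternative with the GC trend removed. mt-Nd3 rests on few counts, with a mean of 3.57 ± 1.94 (SD, n = 5) CPM in wild type and 7.22 ± 2.84 (SD, n = 5) in knockout. mt-Co1, the catalytic subunit of complex IV, had 1306, 1284, 1274, 1166 and 1814 CPM in wild type and 2430, 4437, 929, 1740 and 2375 in knockout. Its log2 fold change was 0.80 ± 0.30 (SE) with adjusted p 0.160, and -0.07 with all 12 libraries. KO3 was the highest of the 10 libraries in 7 of the 8 genes (KO8 in mt-Nd3) and WT6 the lowest in 7 of the 8 (KO5 in mt-Co1). WT2 exceeded KO4 in all 8, with 11960 against 4252 CPM for mt-Nd1 and 6532 against 829 CPM for mt-Co1. With all 12 libraries the median log2 fold change of the 8 genes was 0.18, and 0 of 8 were then below an unadjusted p of 0.05.

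**Figure D3:**
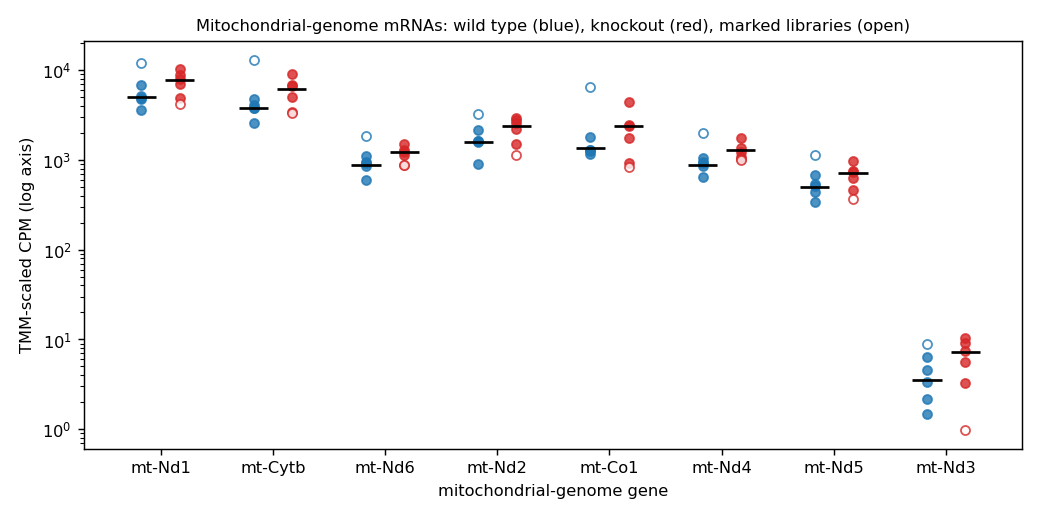
Scaled CPM (y axis, log scale) of the 8 mitochondrial-genome genes tested, in wild-type (blue) and knockout (red) libraries, with a line at the mean of the 5 libraries of each group; open circles are WT2 and KO4. In each gene the knockout mean is above the wild-type mean and the groups overlap, and WT2 is above KO4.

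Base composition moved with these differences. The 8 genes had a median GC content of 36.4%, against 48.6% in the 13 nuclear members that were higher with an unadjusted p below 0.05, 52.3% in the 5 that were lower and 51.9% in the other 73. Across the 91 nuclear members the Spearman correlation of log2 fold change with GC content was -0.38, and across 13432 genes it was -0.50; the genes share the same libraries, so these are descriptions. When each library's trend of level on GC content was removed, the median log2 fold change of the 8 mitochondrial-genome genes was 0.21, and 1 of 8 was higher below an unadjusted p of 0.05, against 7.52% of all genes. Purkinje cell markers moved with them too: 4 of 6 were higher in knockout with an unadjusted p below 0.05 and none lower, against 11.8% and 9.97% of all genes, with a median log2 fold change of 0.42 and none at 0, and their sum was 666 CPM for WT2 and 288 CPM for KO4. Of the 6 markers of Bergmann glia and astrocytes 1 was higher and 0 lower, none was at 0, and their sums were 541 to 929 CPM in wild type, 763 to 1203 in knockout, 1952 in WT2 and 801 in KO4. Of the 3 interneuron markers tested 2 were higher and 1 lower, with sums of 15.8 to 22.5 CPM in wild type, 11.7 to 37.4 in knockout, 31.4 in WT2 and 11.97 in KO4. Of the 5 markers of differentiating granule neurons tested 2 were higher and 1 lower, with sums of 3230 to 5463 CPM in wild type, 3595 to 6900 in knockout, 6144 in WT2 and 4500 in KO4. Of the 5 markers of the oligodendrocyte lineage tested 0 were higher and 2 lower, with a median log2 fold change of -0.38. Of the 8 markers of granule neuron precursors 2 were higher and 1 lower. Among markers of microglia, of blood, and of endothelium, pericytes and meninges, none was higher or lower with an unadjusted p below 0.05. The part of these cells in the result was not tested.

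The counts by complex that follow are to be read against the shares over all genes, 11.8% higher and 9.97% lower. Complex I, which oxidises NADH, held the most nuclear members. Of its 7 core subunits 0 were higher and 1 lower with an unadjusted p below 0.05, with a median log2 fold change of -0.12. The core subunit Ndufv2 had 393 to 425 CPM in wild type and 430 to 496 in knockout, without overlap, at a log2 fold change of 0.16 and adjusted p 0.299, and of 0.0068 with the GC trend removed. WT2, at 464 CPM, lay within the knockout range.

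Among the 31 accessory subunits of complex I, 8 were higher and 1 lower with an unadjusted p below 0.05, with a median log2 fold change of -0.01. Ndufa4 and Ndufa4l2 were grouped here by their symbols, and Ndufa4 was among the 8 that were higher. Ndufa5, of the matrix arm, had a log2 fold change of 0.42 ± 0.15 (SE) and Ndufc2, of the membrane arm, one of 0.58 ± 0.21 (SE), each with an adjusted p of 0.158. Ndufc2 ran from 400 to 812 CPM in wild type and from 431 in KO5 to 1110 in KO3, so the groups overlapped. Ndufa10, the accessory subunit that was lower, had 106, 98.9, 101, 115 and 110 CPM in wild type and 70.0, 76.3, 130, 74.2 and 67.2 in knockout. KO5 was the highest of these 10 libraries and the other 4 knockout libraries were the lowest; the log2 fold change was -0.35 ± 0.15 (SE), adjusted p 0.196. The assembly factors held 0 higher and 1 lower of 8. Ndufaf1, which helps to build the membrane arm, had 13.2 ± 2.08 CPM in wild type and 9.37 ± 2.37 in knockout (SD, n = 5), a log2 fold change of -0.48 ± 0.19 (SE) and adjusted p 0.166.

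Complex II, succinate dehydrogenase, has no mitochondrial-genome subunit, and none of its 4 genes was below an unadjusted p of 0.05. The iron-sulfur subunit gene Sdhb had a log2 fold change of -0.15 ± 0.11 (SE) and the membrane anchor gene Sdhc one of -0.12 ± 0.11 (SE), with adjusted p of 0.432 and 0.546; the sign of each turned in some alternatives given at the end. Sdhd, the most abundant of the 4 per kb, had 229 to 256 CPM in wild type and 240 to 262 in knockout.

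In complex III, which passes electrons from ubiquinol to cytochrome c, 1 of 9 nuclear genes was higher and 1 lower with an unadjusted p below 0.05. Uqcrc1, a core protein on the matrix side, had 222, 183, 248, 247 and 225 CPM in WT1, WT3, WT5, WT6 and WT7, and 139, 153, 222, 182 and 146 in KO2, KO3, KO5, KO6 and KO8. Again KO5 lay among the wild-type libraries, and the other 4 knockout libraries were the lowest of the 10. The log2 fold change was -0.42 ± 0.13 (SE), adjusted p 0.131, and the marked libraries stood at 133 in WT2 and 260 in KO4. Uqcrq, a small subunit, had 857 ± 67.3 CPM in wild type and 1050 ± 133 in knockout (SD, n = 5), with a log2 fold change of 0.29 ± 0.11 (SE) and adjusted p 0.158.

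Cycs encodes the somatic cytochrome c, which carries electrons from complex III to complex IV and, once released to the cytosol, takes part in apoptosis. It had 8.46, 10.2, 9.27, 8.29 and 9.81 CPM in wild type and 12.9, 12.7, 15.2, 11.6 and 11.7 in knockout. Every knockout library lay above every wild-type library, by a log2 fold change of 0.48 ± 0.15 (SE), with adjusted p 0.134 in edgeR's test and 0.0466 in DESeq2's; over all alternatives the adjusted p ran from 0.0466 to 1. With the GC trend removed the log2 fold change of Cycs was 0.26 ± 0.17 (SE), adjusted p 0.48. Here the marked libraries kept the order, with 8.27 in WT2 and 14.1 in KO4. Of the 91 nuclear members, 3 (Cycs, Ndufv2 and Ndufc1) did not overlap between the 5 and 5 libraries with knockout above, against 1.04% of all genes, and 0 with knockout below, against 1.31%. With the marked libraries included, 6 against 6, Cycs and Ndufc1 still did not overlap, as did 0.0818% of all genes. Ndufc1, an accessory subunit of complex I named here after its values were seen, was separated narrowly, with 150.7 CPM in WT3 against 151.5 in KO2, a gap smaller than the counting error of either library. The counts of Cycs come from a gene whose coding windows are all shared with other genes, Gm10053 on chromosome 19 among them.

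In complex IV, which reduces oxygen, 2 of the 14 nuclear genes tested were higher with an unadjusted p below 0.05 and 0 lower. Ndufa4 is not among these 14. Cox7b, a small nuclear subunit, had 350, 339, 360, 319 and 492 CPM in wild type and 586, 853, 381, 452 and 609 in knockout. KO5 and KO6 lay below WT7, and the others lay above every wild-type library. The log2 fold change was 0.63 ± 0.18 (SE), adjusted p 0.131, but WT2 had 1308 CPM and KO4 had 358, and the fold change was 0.40 with the GC trend removed. Cox6c had 819 ± 170 CPM in wild type and 1110 ± 247 in knockout (SD, n = 5), a log2 fold change of 0.44 ± 0.17 (SE) and adjusted p 0.160. Cox4i1, the highest per kb of the nuclear Cox genes, had 1284 to 1442 CPM in wild type and 1192 to 1730 in knockout.

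Complex V, the ATP synthase, had 1 of 17 genes higher and 1 lower with an unadjusted p below 0.05. Atp5b, the catalytic beta subunit, had 1345 ± 92.2 CPM in wild type and 1114 ± 118 in knockout (SD, n = 5), a log2 fold change of -0.27 ± 0.10 (SE) and adjusted p 0.164. Its partner in the catalytic head, Atp5a1, had 1566 to 1620 CPM in wild type and 1480 to 1690 in knockout. Atp5j2, a subunit of the membrane part, had 452 ± 80.4 CPM in wild type and 566 ± 97.6 in knockout (SD, n = 5), a log2 fold change of 0.32 ± 0.13 (SE) and adjusted p 0.181.

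The marked libraries opposed most of these small differences. Of the 13 nuclear members that were higher in knockout with an unadjusted p below 0.05, 11 were higher in WT2 than in KO4, and Cycs and Ndufab1 were the exceptions. Of the 5 that were lower, all 5 were higher in KO4 than in WT2. Over all 91 nuclear members the order was near even, with 43 higher in WT2 and 48 higher in KO4. With all 12 libraries, 2 nuclear members were higher and 1 lower with an unadjusted p below 0.05, against 1.91% and 1.55% of all genes. The log2 fold changes were then 0.03 for Cox7b, 0.09 for Cox6c, 0.05 for Ndufc2, 0.07 for Atp5j2, 0.15 for Ndufa5 and 0.17 for Uqcrq. On the lower side they were -0.19 for Uqcrc1, -0.05 for Ndufa10, -0.24 for Ndufaf1 and -0.18 for Atp5b, while Cycs stood at 0.53.

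**Figure D4:**
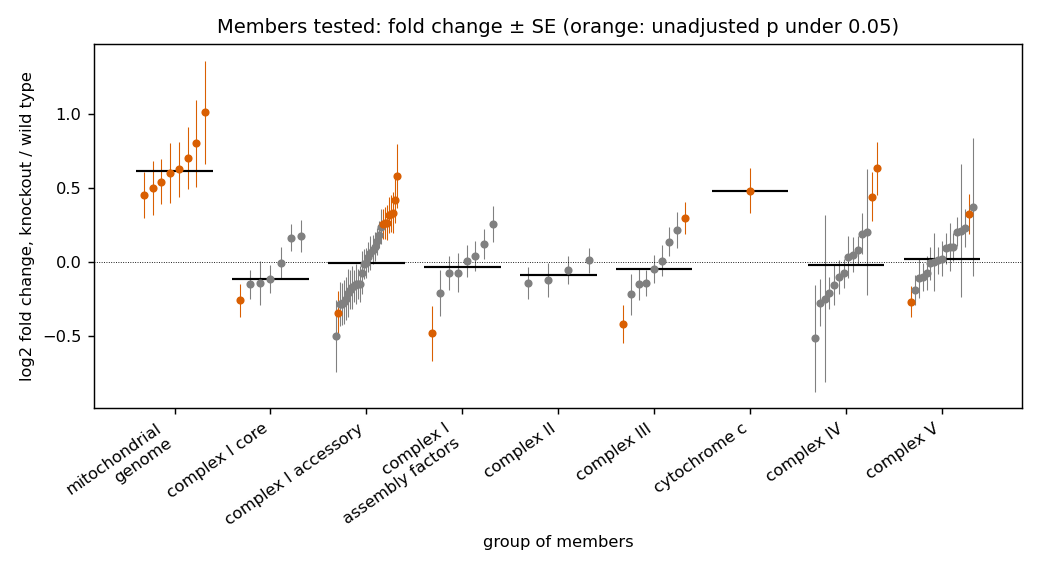
Log2 fold change of knockout over wild type with its SE (y axis) for the 99 members tested, by complex, with a line at each group's median; orange marks an unadjusted p below 0.05. The 8 mitochondrial-genome genes lie between 0.45 and 1.01. Cytochrome c, a single gene, lies at 0.48, and the other nuclear groups have medians from -0.12 (complex I core) to 0.02 (complex V).

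Genes that serve the same system outside the rule also had 0 calls in edgeR's test, and their counts below stand beside 11.8% higher and 9.97% lower over all genes. Of 35 assembly factors of the respiratory chain, 2 were higher and 1 lower with an unadjusted p below 0.05, and those of smallest p, Coa6 and Tmem70, each had a log2 fold change of 0.34. Of 28 genes that copy and express the mitochondrial genome, 4 were higher and 4 lower, with a median log2 fold change of -0.00. The smallest p among them belonged to Elac2, which trims mitochondrial tRNA precursors, at -0.79 ± 0.22 (SE) on the log2 scale and an adjusted p of 0.131. Polrmt, the RNA polymerase of the organelle, followed with -0.67 ± 0.23 (SE), adjusted p 0.147, and neither passed. Polrmt had 6.61 to 14.7 CPM in wild type and 4.38 to 7.40 in knockout, with 2.84 for WT2 and 9.15 for KO4. Of 77 mitochondrial ribosomal proteins, 8 were higher and 6 lower, with a median of -0.08, and Mrps18c (0.46) and Mrpl47 (0.60) had the smallest p. The citrate cycle and pyruvate dehydrogenase held 1 higher and 4 lower of 17: citrate synthase, Cs, was at -0.42 ± 0.12 (SE) on the log2 scale, with an adjusted p of 0.131. Of 9 regulators of nuclear respiratory genes, 2 were higher and 1 lower, with Creb1 at 0.41 and Gabpb1 at -0.38. The rRNAs and tRNAs of the mitochondrial genome had 4 higher and 0 lower of 10 tested, and a median of 0.38; the large rRNA, mt-Rnr2, stood 0.65 ± 0.22 (SE) higher in log2 fold change, adjusted p 0.146.

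Promoters offer a feature that the choice of members did not use. Windows of 300 bases, 250 before and 50 after the annotated start, were found in RefSeq (GRCm38.p6) for 75 of the 95 nuclear members. A gene with more than 1 window counted once, if any of its windows held the motif. On either strand, the NRF1 motif GCGCATGCGC was in 9.33% of these members, against 1.07% of all genes with a window and 1.47% of coding genes. The YY1 motif AAGATGGC was in 13.33%, against 3.19% and 3.57%. CCGGAAGT, bound by GABPA, was in 6.67%, against 4.31% and 5.69%. TCAAGGTCA, bound by ERR alpha, was in 2.67% (2 promoters), against 0.47% and 0.38%, and TATAAA was in 9.33%, against 15.67% and 14.8%. NRF1, GABPA, YY1 and ERR alpha are known regulators of nuclear respiratory genes, and a match is only a match of letters. The promoters of Uqcrc1 (chr9:108936398-108936697, plus strand), whose level was lower in knockout, and of Atp5j2 (chr5:145191492-145191791, minus strand), whose level was higher, each with an unadjusted p below 0.05, show where the motifs fall; capitals mark NRF1 in the first and YY1 in the second, both downstream of the annotated start.
Uqcrc1: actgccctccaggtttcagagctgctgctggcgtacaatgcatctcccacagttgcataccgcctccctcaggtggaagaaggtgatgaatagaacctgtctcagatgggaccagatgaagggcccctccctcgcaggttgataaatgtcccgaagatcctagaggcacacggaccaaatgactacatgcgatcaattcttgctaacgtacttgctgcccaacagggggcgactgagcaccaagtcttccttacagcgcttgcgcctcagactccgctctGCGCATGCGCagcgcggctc
Atp5j2: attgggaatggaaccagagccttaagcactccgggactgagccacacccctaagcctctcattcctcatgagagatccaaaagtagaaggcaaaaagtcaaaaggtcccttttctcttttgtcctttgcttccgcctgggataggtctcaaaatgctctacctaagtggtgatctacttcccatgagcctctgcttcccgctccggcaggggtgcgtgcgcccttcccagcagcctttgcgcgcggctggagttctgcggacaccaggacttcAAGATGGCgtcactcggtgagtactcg

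The median of the mitochondrial-genome genes moved more between settings than that of the nuclear ones, as the plot of medians by setting shows. Nuclear members were split in sign, 44 above 0 and 47 below, so their median can stay while single genes move. Over all alternatives the log2 fold change ran from 0.03 to 0.75 for Cox7b and from 0.17 to 0.37 for Uqcrq. For mt-Nd1 it ran from 0.12 to 0.76. The median log2 fold change of nuclear members ran from -0.09 to 0.08 over the settings other than leaving out a library, and that of the mitochondrial-genome members from 0.08 to 0.70.

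**Figure D5:**
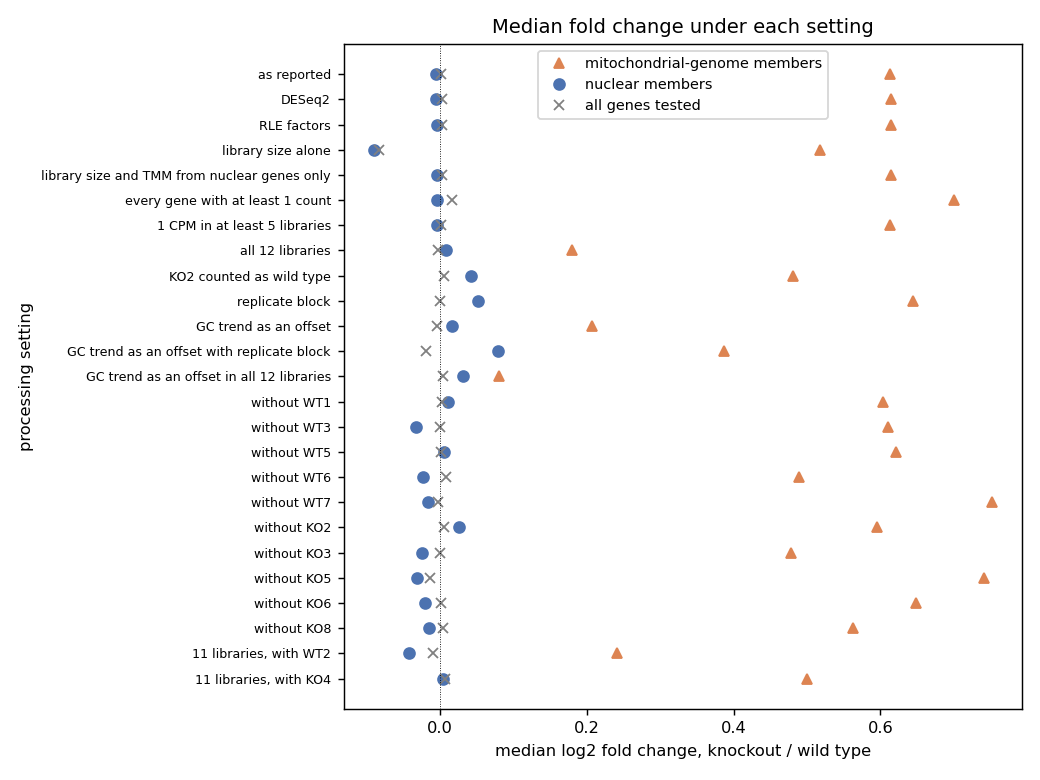
Median log2 fold change of knockout over wild type (x axis) under each processing setting (y axis) for mitochondrial-genome members (triangles), nuclear members (circles) and all genes tested (crosses). The mitochondrial-genome median is above 0 in each setting and lowest, at 0.08, where all 12 libraries are used with the GC trend removed.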

How the data were processed

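RNA of laser-captured external granule layer was sequenced in 12 libraries made with a NEBNext Ultra kit, which does not mark strand. The authors deposited raw counts of reads per gene; per the submitters' processing notes they used cutadapt 1.16, STAR 2.5.3a, HTSeq 0.6.1 and DESeq2 with build mm10. No source used here states the annotation release or settings. Identifiers were matched to GENCODE M21 for 53274 of 53379 genes. Counts were filtered with filterByExpr (minimum count 10), TMM-scaled and compared with edgeR 4.0.16 (quasi-likelihood, robust; limma 3.58.1, R 4.3.3), and adjusted by Benjamini-Hochberg over 13442 genes. Displayed CPM use the filter and factors of all 12 libraries. Within groups, the 30 pairs of libraries had a chi-square per degree of freedom of 6.51 to 94.1, where sampling noise alone gives about 1, so none was counted as a repeat. The script was tested on simulated data, 5 libraries against 5, with each gene drawn independently. It recovered 40.3% of 1.5-fold, 70.1% of 2-fold and 93.9% of 4-fold changes at an adjusted p under 0.05. Of its calls, 9.33% were genes left unchanged.

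The members, pathway lists and alternatives (DESeq2 1.42.0, other scaling, filters, libraries, GC content, the replicate number as a block) were chosen with earlier results of these data known. Named genes were mt-Nd1, mt-Cytb, Cycs, every mitochondrial-genome member, the 2 most abundant members per kb and the 2 of smallest p in each complex, isoform sets, the 5 of smallest p in each direction, and 2 genes of smallest p per pathway list. A few that add nothing were passed over, and the results of some genes are not reported here. Fits with only WT2 or only KO4 added were chosen after seeing the data.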

Additional observations from a re-analysis of the deposited data

Results flagged for a closer look

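Of 90 groups of 5 libraries checked for a library far from the other 4, 4 stood out, and chance alone gives about 1 in 20. They were Cox6b2 in WT6 (0.619 CPM; the nearest wild-type library had 1.37), Cox7b in WT7 (492 CPM; nearest 360), mt-Co1 in WT7 (1810 CPM; nearest 1310) and Ndufa10 in KO5 (130 CPM; nearest 76.3). Cox6b2 rests on 5 counts in WT6. Outside the comparison, the ratio of mitochondrial to nuclear counts in WT2, a marked library, was 1.26, above the highest of the 5 wild-type libraries compared (0.698).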

How the results depend on the processing

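The number of members called depended on the tool, the filter and KO5. Nuclear members called were 2 with DESeq2 and 4 with every gene of at least 1 count, and 0 to 31 with a library left out, the 31 without KO5. Mitochondrial-genome members called were 3, 5 and 0 to 8, the 8 again without KO5. The median of the mitochondrial-genome members was 0.61 as reported, 0.18 with all 12 libraries, 0.21 with the GC trend removed, 0.0798 with both, and 0.48 to 0.75 with a library left out. The nuclear median was -0.03 to 0.03 with a library left out. With library size alone as scaling, nuclear members at an unadjusted p below 0.05 split 6 higher to 12 lower in place of 13 to 5, and the median of all genes was -0.08.

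Of 24 members and Skil recomputed under each alternative, 8 of 600 values changed sign. They were mt-Co1 with all 12 libraries (-0.0701) and with the GC trend removed in all 12 (-0.0827), mt-Nd5 in the latter (-0.0082), mt-Nd6 with the GC trend removed (-0.0160), Sdhb with the GC trend removed and the replicate block (0.0423) or in all 12 libraries (0.0080), and Sdhc in all 12 libraries without (0.0737) and with (0.0861) the GC trend removed. The cause was not tested. Library numbers 3, 5 and 6 are shared by the groups, but same-numbered libraries correlated at 0.11, -0.05 and 0.09, so the numbers were not taken as pairs. With the replicate block 0 nuclear and 0 mitochondrial-genome members were called, with medians of 0.05 and 0.64. That fit compares the groups only through numbers 3, 5 and 6. It called 0 of all 13442 genes, so the absence of calls among members says nothing particular about them. Depth limits mt-Nd3, Atp5g2, Atp5l and the minor isoforms, which rest on few counts.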
